A study of Homo sapiens with 18 samples.

Results

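Androgen target genes outside the kallikrein family were followed across the arrays of 2 human prostate cancer cell lines, 22Rv1 and LNCaP. The list held 37 genes named for known induction by androgen, and for each the probe set that mapped to that gene alone and had the highest mean over the 18 arrays was used. Of the 37, 33 had such a probe set and 32 passed the filter of a log2 value over 4 on at least 3 arrays, against 12159 genes tested of 19775 with a probe set in the whole series. ADAM7, ACSL3 and SORD had no probe set naming them and HERC3 was only on probe sets shared with another gene, so these 4 were not analysed here. CHRNA2, a nicotinic receptor subunit, was under 4 on every array, between 2.90 and 3.39, and was not tested. TRPM8 passed the filter only through the LNCaP control arrays, so its lower value in every other group is built into that filter. TMPRSS2 passed only through the LNCaP groups, and its 22Rv1 values are at background.

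Androgens such as testosterone and dihydrotestosterone switch on genes through androgen response elements, most of them in enhancers opened by the pioneer factor FOXA1. In luminal prostate cells the genes they induce carry out secretion, lipid and polyamine metabolism, ion and steroid transport and feedback on chaperones of steroid hormone signalling. ONECUT2 is a homeodomain transcription factor of the CUT family known from liver and nervous tissue.

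The tested groups were LNCaP and 22Rv1 cells transduced with lentivirus carrying full-length ONECUT2 cDNA, and 22Rv1 cells transduced with a short hairpin RNA (shRNA) against ONECUT2. Their references were LNCaP and 22Rv1 control cells, labelled as vehicle, and 22Rv1 cells with a scramble shRNA that matches no mammalian transcript. Each of the 6 groups had 3 arrays, all cells grew in serum-containing medium, with no androgen treatment named in the labels, and transduced cells were kept under puromycin as stable lines. The labels do not say whether the vehicle controls carried an empty vector, whether a line was 1 clone or a pool, or whether replicates were separate cultures, so the error terms cover differences among arrays that may be only technical. In such bulk RNA, a lower value in every cell and its loss from some of the cells cannot be told apart.

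The arrays were Affymetrix U133 Plus 2.0, on which values are log2 GCRMA signals, and array medians lay between 3.26 and 3.34. LNCaP overexpression replicates were less alike than those of the other groups, with mean correlations to their own group of 0.978, 0.985 and 0.988, against at least 0.996 in the other 5 groups. Replicate 3 of that group also showed signal at 4 or more for 57 of 63 genes that were over 9 in the 22Rv1 overexpression arrays and under 4 in LNCaP controls, compared with 32 on replicate 1 and 34 on replicate 2. ONECUT2 itself was at 7.23, 7.31 and 7.28 in overexpressing LNCaP cells against 6.58, 6.53 and 6.72 in LNCaP controls, and at 8.59, 8.81 and 8.85 in overexpressing 22Rv1 cells against 8.23, 8.15 and 8.25 in 22Rv1 controls. It was at 8.46, 9.0 and 9.12 on the arrays labelled ONECUT2 shRNA, against 6.63, 6.71 and 7.08 on those labelled scramble, which goes against the labels, and every direction drawn from these arrays below is that of the labels. Whether this probe set reads the transduced cDNA was not tested. KRT8, KRT18 and HOXB13, which mark luminal prostate epithelium, were over 4 on all arrays, while the basal markers KRT5 and KRT14 and the 3 leukocyte markers were under 4 on all arrays.

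In LNCaP cells, nearly the whole set of androgen targets was lower with ONECUT2 overexpression than in controls. Of the 32 tested genes, 30 fell, 0 rose, and HOMER2 and RAB3B did not pass the test (limma, Benjamini-Hochberg adjusted p under 0.05 over all 12159 genes). In the same comparison 28% of all genes were called lower and 34.1% higher, 62.2% in either direction. The median log2 change of the 32 genes was -2.02, against 0.09 over all genes tested. The fall reached at least 2-fold for 25 genes, beside 11.8% of all genes, and for 28 genes the overexpressing and control arrays did not overlap, beside 24.6% of all genes called lower with such a gap. Without TRPM8, whose fall the filter builds in, 29 of 31 genes fell, with a median of -1.96.

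In 22Rv1 cells the same set was divided. With overexpression 17 of the 32 genes fell, 5 rose and 10 were not called, beside a background of 24.3% of all genes called lower, 36.5% higher and 60.8% in either direction. The median log2 change was -0.53, against 0.10 over all genes tested, and 11 genes were at least 2-fold lower and 2 at least 2-fold higher, beside 8.98% and 14.8% of all genes. All 17 genes that fell in 22Rv1 cells also fell in LNCaP cells, where they were 17 of 30. With 30 of the 32 genes lower in LNCaP cells this overlap was close to fixed, and it was not counted over all genes. GNMT, ABCC4, EAF2 and CAMKK2 rose in 22Rv1 and fell in LNCaP cells. These comparisons share no arrays.

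**Figure D1:**
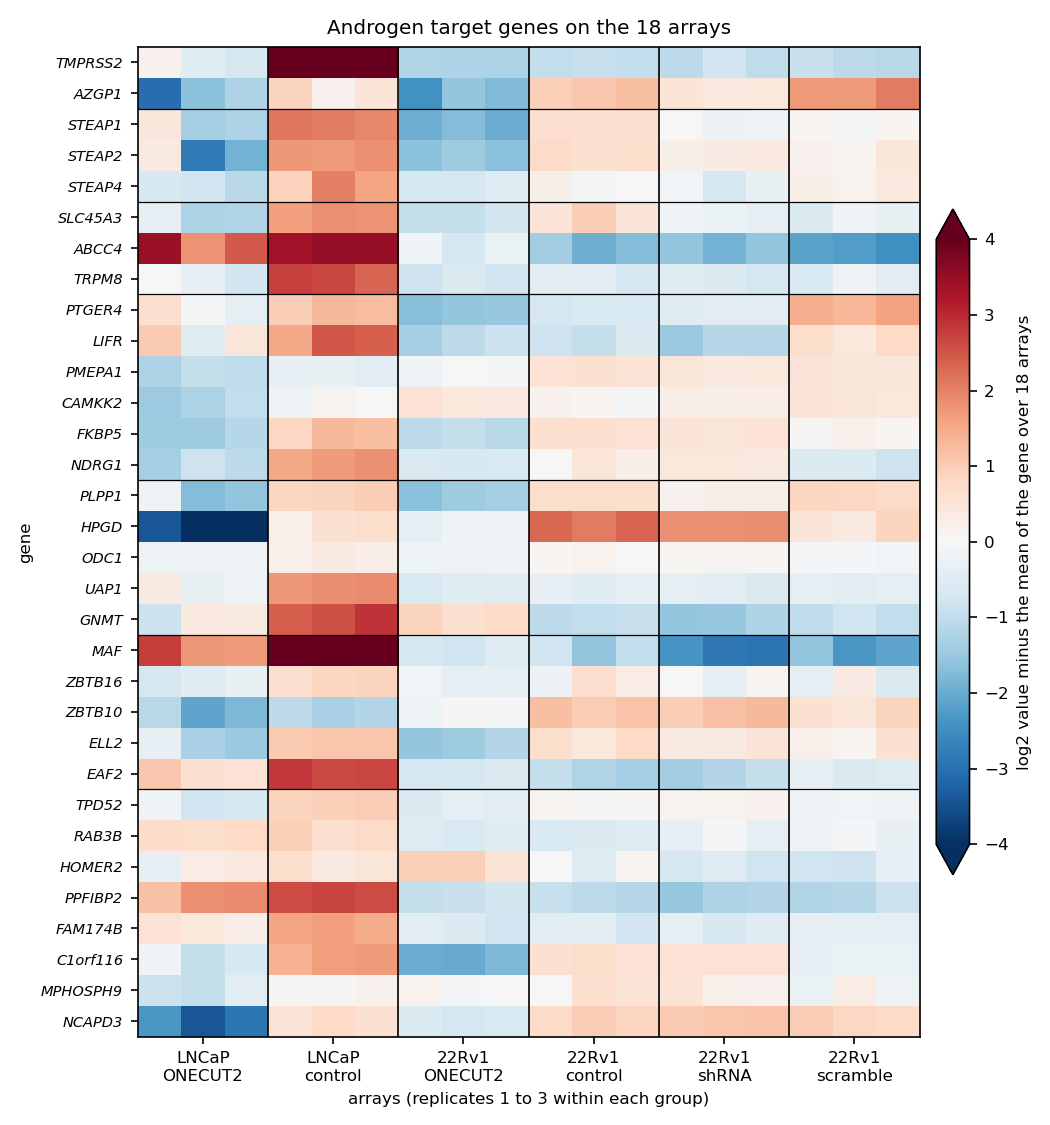
Log2 value of each of the 32 tested androgen target genes (rows, in blocks by role) on each of the 18 arrays (columns, 3 replicates a group), minus the gene's mean over the 18 arrays; colours end at 4 in either direction. Most rows are lighter red or bluer in the LNCaP ONECUT2 arrays than in LNCaP controls, and ABCC4, MAF and EAF2 are high in both LNCaP groups.

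**Figure D2:**
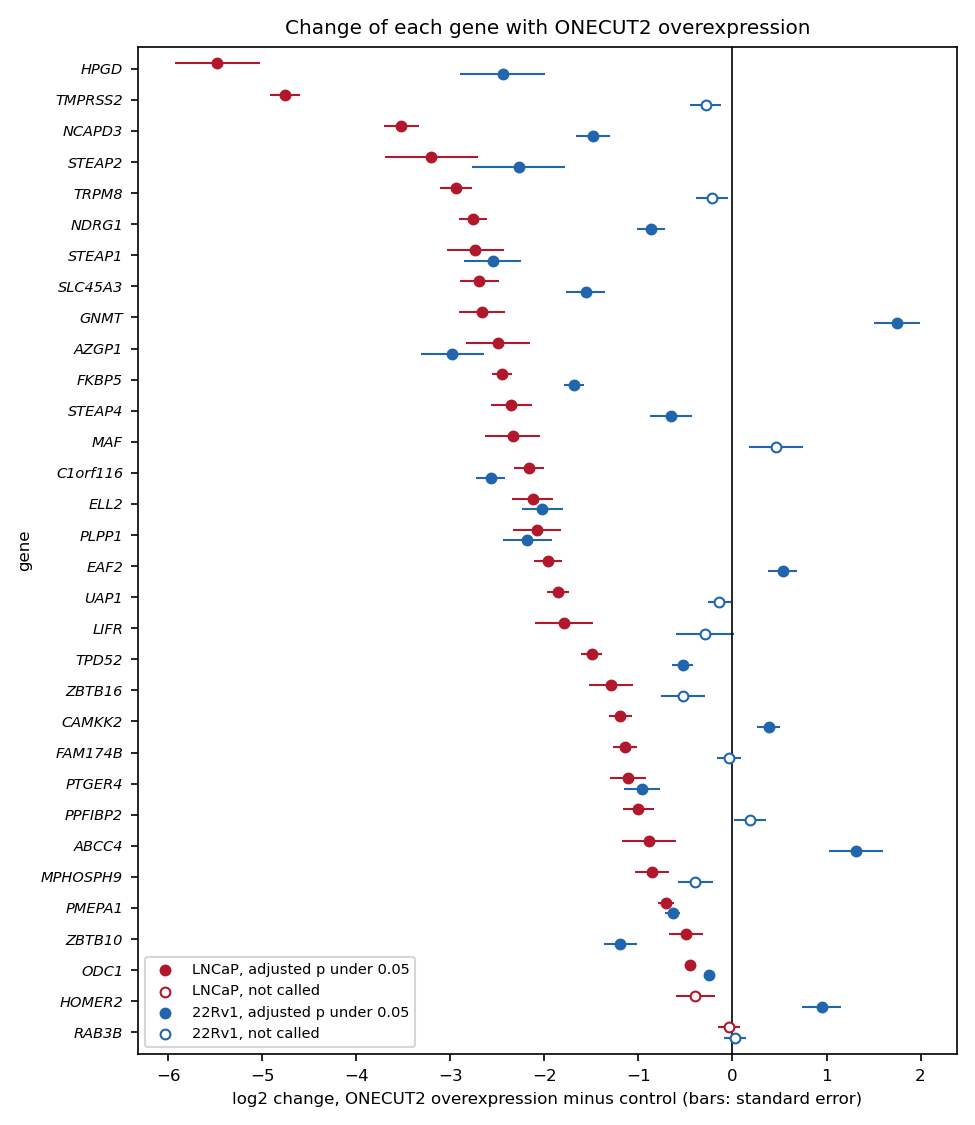
Log2 change with ONECUT2 overexpression (x axis, overexpression minus control, bars the standard error of the limma fit) for each tested gene (y axis), with LNCaP in red and 22Rv1 in blue, and open circles for genes that were not called. All LNCaP points lie below 0, and 5 of the 22Rv1 points that were called lie above it.

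Among secreted and surface proteins, TMPRSS2, the androgen-driven membrane serine protease whose promoter is often fused to ETS genes in prostate cancer, showed the second largest fall in LNCaP cells. It was at 4.92, 4.26 and 4.10 in overexpressing LNCaP cells against 9.05, 9.22 and 9.29 in controls, a change of -4.76 ± 0.16 (SE, adjusted p = 4.15e-13), or 27.1-fold lower. The groups lie far apart and the overexpressing arrays sit just over the background level of 4. In 22Rv1 cells it stayed between 3.46 and 3.95 on all 12 arrays, so no change could be measured there. AZGP1, a secreted lipid-mobilising glycoprotein of seminal fluid, fell in both lines. It was at 5.96, 7.35 and 7.77 in overexpressing LNCaP cells against 9.89, 9.17 and 9.51 in controls (-2.50 ± 0.34, adjusted p = 8.16e-06). It was at 6.57, 7.45 and 7.23 in overexpressing 22Rv1 cells against 9.93, 10.06 and 10.20 in controls (-2.98 ± 0.34, adjusted p = 1.17e-06), which was the largest fall of the set in 22Rv1 cells.

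The 3 metalloreductases, STEAP1, STEAP2 and STEAP4, are membrane proteins that bind heme, and STEAP2 and STEAP4 reduce iron and copper at the cell surface. All 3 fell in both lines, beside 28% of all genes called lower in LNCaP and 24.3% in 22Rv1 cells. STEAP1 was at 11.76, 9.98 and 10.06 in overexpressing LNCaP cells against 13.41, 13.36 and 13.22 in controls (-2.73 ± 0.30, adjusted p = 1.11e-06). STEAP2 was at 11.19, 8.01 and 8.94 in overexpressing LNCaP cells against 12.56, 12.54 and 12.65 in controls (-3.20 ± 0.49, adjusted p = 4.28e-05). In both genes replicate 1 lay well above replicates 2 and 3 yet below every control array. The STEAP2 change was -4.11 without replicate 1 and -2.52 without replicate 2. In 22Rv1 cells STEAP1 was at 9.35, 9.56 and 9.33 with overexpression against 11.96, 11.97 and 11.97 in controls (-2.55 ± 0.30, adjusted p = 2.46e-06). STEAP2 was at 9.20, 9.41 and 9.16 in overexpressing 22Rv1 cells against 11.59, 11.45 and 11.55 in controls (-2.27 ± 0.49, adjusted p = 0.000942), with no overlap. STEAP4 was at 3.51, 3.39 and 3.04 in overexpressing LNCaP cells against 5.08, 6.19 and 5.73 in controls, at least 3.17-fold lower (adjusted p = 1.21e-07), where a group under 4 on all arrays is set to 4. In 22Rv1 cells STEAP4 was near background in both groups, at least 1.15-fold lower (adjusted p = 0.0169), and without control replicate 1 the adjusted p was 0.0699.

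Of the transporters and channels, SLC45A3, or prostein, a prostate-restricted sugar transporter-like protein, fell in both lines. It was at 7.59, 6.68 and 6.71 in overexpressing LNCaP cells against 9.57, 9.76 and 9.73 in controls (-2.69 ± 0.21, adjusted p = 1.04e-08), and the fall in 22Rv1 cells was -1.56 ± 0.21 (adjusted p = 6.28e-06). TRPM8, the cold- and menthol-gated cation channel, was at 3.43, 3.11 and 2.69 in overexpressing LNCaP cells against 6.17, 6.11 and 5.77 in controls, at least 4.05-fold lower, a difference given with no test because of the filter. All 3 overexpressing arrays were at background, and in 22Rv1 cells the gene was under 4 throughout. ABCC4, an efflux pump for cyclic nucleotides and prostaglandins, moved in opposite directions. It was at 8.70, 8.17 and 8.62 in overexpressing 22Rv1 cells against 7.49, 6.93 and 7.14 in controls (1.31 ± 0.29, adjusted p = 0.000829). In LNCaP cells it was at 12.33, 10.68 and 11.32 with overexpression against 12.24, 12.39 and 12.36 in controls (-0.89 ± 0.29, adjusted p = 0.0127). The LNCaP groups overlapped, because replicate 1 was at the control level, and without overexpression replicate 2 the change was -0.51 (adjusted p = 0.083). The rise of ABCC4 in 22Rv1 cells was 0.37 (adjusted p = 0.190) when all its probe sets were averaged.

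The 6 receptors and signalling genes all fell in LNCaP cells, and 4 of them (66.7%) fell in 22Rv1 cells, beside 28% and 24.3% of all genes. FKBP5, a cochaperone of HSP90 in steroid receptor complexes, fell in both lines with little spread. It was at 10.20, 10.20 and 10.48 in overexpressing LNCaP cells against 12.47, 12.93 and 12.83 in controls (-2.45 ± 0.10, adjusted p = 7.13e-12), or 5.46-fold lower. It was at 10.57, 10.66 and 10.51 in overexpressing 22Rv1 cells against 12.28, 12.29 and 12.22 in controls (-1.68 ± 0.10, adjusted p = 1.29e-09), or 3.21-fold lower. NDRG1, a stress-responsive protein also induced by hypoxia, was at 6.29, 6.80 and 6.6 in overexpressing LNCaP cells against 9.17, 9.33 and 9.46 in controls (-2.76 ± 0.15, adjusted p = 1.1e-10). Its fall in 22Rv1 cells was -0.87 ± 0.15 (adjusted p = 8.34e-05). PTGER4, the prostaglandin E2 receptor EP4, fell by similar amounts, -1.11 ± 0.19 in LNCaP and -0.96 ± 0.19 in 22Rv1 cells, and so did PMEPA1, an inhibitor of TGF-beta signalling that acts on SMAD proteins, at -0.71 ± 0.08 and -0.64 ± 0.08. LIFR, the receptor of leukemia inhibitory factor, was at 7.49, 5.93 and 6.90 in overexpressing LNCaP cells against 7.96, 8.92 and 8.83 in controls (-1.79 ± 0.31, adjusted p = 9.64e-05), and was not called in 22Rv1 cells (-0.30 ± 0.31, adjusted p = 0.425). CAMKK2, the calcium-dependent kinase that activates AMPK, was at 7.70, 7.89 and 8.17 in overexpressing LNCaP cells against 8.95, 9.27 and 9.13 in controls (-1.19 ± 0.12, adjusted p = 3.18e-07). It was at 9.74, 9.56 and 9.56 in overexpressing 22Rv1 cells against 9.34, 9.27 and 9.10 in controls (0.39 ± 0.12, adjusted p = 0.0114). That small rise lost its call without 22Rv1 control replicate 3 (0.32, adjusted p = 0.0586), for overexpression replicate 1 left out (0.33, adjusted p = 0.0543), and with its probe sets averaged (0.08, adjusted p = 0.489).

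The promoters of FKBP5 and PMEPA1 are shown because both genes fell in both lines and the window shown of each holds a single AGAACA, one arm of the classical androgen response element. The letters come from RefSeq on GRCh38.p14, read on the gene's strand, and capitals mark AGAACA or its complement TGTTCT. The FKBP5 stretch is chr6:35728564-35728833 on the minus strand, 250 bases before one of its annotated starts and 20 from it on, and its match begins at that start, while the window at its other start holds no AGAACA. The PMEPA1 stretch is chr20:57710578-57710827 on the minus strand, the 250 bases before one of its annotated starts, and its match begins at position -229. Another PMEPA1 window also holds 1 AGAACA, at +22, and the windows at the other PMEPA1 starts hold none.
FKBP5: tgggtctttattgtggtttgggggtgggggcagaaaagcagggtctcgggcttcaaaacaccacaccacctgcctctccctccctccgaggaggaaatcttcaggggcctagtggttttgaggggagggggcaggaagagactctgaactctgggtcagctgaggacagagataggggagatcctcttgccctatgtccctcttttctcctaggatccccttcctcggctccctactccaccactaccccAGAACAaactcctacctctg
PMEPA1: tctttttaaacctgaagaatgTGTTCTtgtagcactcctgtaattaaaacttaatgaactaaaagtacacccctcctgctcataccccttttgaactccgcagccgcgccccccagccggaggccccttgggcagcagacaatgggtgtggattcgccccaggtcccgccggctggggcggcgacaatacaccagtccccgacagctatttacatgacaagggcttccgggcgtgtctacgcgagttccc
Of the 37 genes, 27 matched a promoter entry, with 49 windows of 300 bases in all. AGAACA on either strand was in 6 of these 49 windows (12.2%), from FKBP5, PMEPA1, LIFR, TRPM8 and PPFIBP2, against 14.8% of the 35116 promoter windows of all genes. Counted by gene it was in 5 of 27 (18.5%), against 17.5% of all genes with a window. ATCAAT on either strand, a core that Onecut proteins bind, was in 1 window (2.04%), against 6.26% of all windows. ATCGAT, which reads the same on both strands, was in 0 windows against 0.763%, and AGAACA followed after 3 bases by TGTTCT was in 0 against 0.00285%. A match is a run of letters in this window, and most known androgen response elements lie in enhancers that were not read here.

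Enzymes of lipid and small-molecule metabolism fell in LNCaP cells without exception among the 5 tested, beside 28% of all genes called lower. HPGD, which inactivates prostaglandins by oxidation, had the largest fall of all 32 genes. It was at 5.61, 3.87 and 2.72 in overexpressing LNCaP cells against 9.25, 9.65 and 9.74 in controls (-5.48 ± 0.45, adjusted p = 3.71e-08), or 44.6-fold lower. Only 1 of the 3 overexpressing arrays was over 4, and with arrays under 4 set to 4 the change was -5.01. Without overexpression replicate 1 the other two lay under 4, which gives a fall of at least 5.55 on the log2 scale, and without replicate 3 the change was -4.81. In 22Rv1 cells HPGD was at 8.69, 8.91 and 8.90 with overexpression against 11.34, 11.11 and 11.38 in controls (-2.44 ± 0.45, adjusted p = 0.000217). PLPP1, a lipid phosphate phosphatase, fell by about the same in both lines. It was at 12.27, 10.75 and 10.89 in overexpressing LNCaP cells against 13.32, 13.36 and 13.46 in controls (-2.08 ± 0.26). It was at 10.80, 11.06 and 11.16 in overexpressing 22Rv1 cells against 13.20, 13.19 and 13.18 in controls (-2.18 ± 0.26, adjusted p = 2.27e-06). GNMT, which methylates glycine and so sets the supply of S-adenosylmethionine, moved in opposite directions. It was at 5.49, 5.23 and 5.35 in overexpressing 22Rv1 cells against 3.55, 3.60 and 3.67 in controls, at least 2.56-fold higher (adjusted p = 1.13e-05). In LNCaP cells it was at 3.72, 4.97 and 4.95 with overexpression against 6.99, 7.15 and 7.49 in controls (-2.66 ± 0.24, adjusted p = 9.38e-08). UAP1, of the UDP-N-acetylglucosamine pathway, was at 12.32, 11.67 and 11.82 in overexpressing LNCaP cells against 13.71, 13.82 and 13.85 in controls (-1.86 ± 0.12) and was not called in 22Rv1 cells (-0.14 ± 0.12, adjusted p = 0.327). ODC1, the first enzyme of polyamine synthesis, had small changes, of -0.45 ± 0.05 in LNCaP (adjusted p = 7.6e-07) and -0.25 ± 0.05 in 22Rv1 cells (adjusted p = 0.000322).

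**Figure D3:**
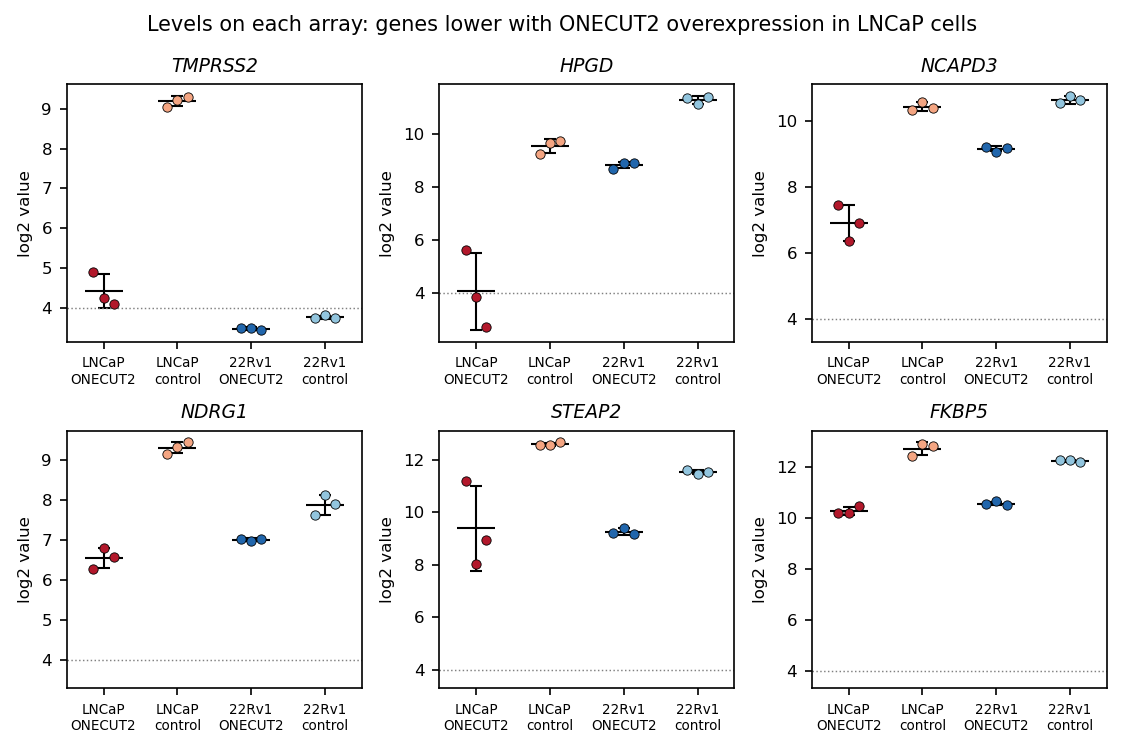
Log2 value on each array (points), with the group mean and SD over 3 arrays (bars), for 6 genes in LNCaP and 22Rv1 cells with ONECUT2 overexpression and their controls; the dotted line is the log2 value of 4 taken as background. In LNCaP cells all overexpressing arrays lie below all control arrays in the 6 panels, and TMPRSS2 lies under the line in both 22Rv1 groups.

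The transcription and elongation genes all fell in LNCaP cells, beside 28% of all genes called lower. ELL2, an RNA polymerase II elongation factor, was at 11.11, 10.15 and 9.95 in overexpressing LNCaP cells against 12.49, 12.56 and 12.55 in controls (-2.13 ± 0.22). It was at 9.92, 10.03 and 10.27 in overexpressing 22Rv1 cells against 12.16, 11.88 and 12.24 in controls (-2.02 ± 0.22, adjusted p = 6.25e-07). Its partner EAF2 differed between the lines, with 7.86, 7.39 and 7.35 in overexpressing LNCaP cells against 9.61, 9.42 and 9.46 in controls (-1.96 ± 0.15, adjusted p = 1.11e-08). In 22Rv1 cells EAF2 was at 6.10, 6.09 and 6.19 with overexpression against 5.81, 5.57 and 5.41 in controls (0.53 ± 0.15, adjusted p = 0.00587), and the rise was 0.16 (adjusted p = 0.133) with its probe sets averaged. MAF, a basic leucine zipper factor, was at 8.88, 7.91 and 7.84 in overexpressing LNCaP cells against 10.14, 10.69 and 10.83 in controls (-2.34 ± 0.29), and was not called in 22Rv1 cells (0.46 ± 0.29, adjusted p = 0.176). The zinc-finger repressor ZBTB16, or PLZF, fell in LNCaP cells (-1.29 ± 0.23) and was not called in 22Rv1 cells, with -0.53 ± 0.23 there (adjusted p = 0.0594), and the difference between lines did not pass (adjusted p = 0.071). ZBTB10, a repressor of Sp-family genes, went the other way in size, at -0.50 ± 0.18 in LNCaP (adjusted p = 0.024, with overlapping groups) and -1.19 ± 0.18 in 22Rv1 cells (adjusted p = 2.53e-05). The LNCaP call for ZBTB10 was lost without control replicate 1 (-0.43, adjusted p = 0.0835) or control replicate 3 (-0.50, adjusted p = 0.0523), and without overexpression replicate 2 (-0.28, adjusted p = 0.150) or overexpression replicate 3 (-0.43, adjusted p = 0.0825).

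Of the vesicle, scaffold and other genes, 6 of 8 (75%) fell in LNCaP cells, beside 28% of all genes. In 22Rv1 cells 3 of 8 (37.5%) fell, beside 24.3% of all genes. NCAPD3, a condensin II subunit used in mitosis, was at 7.44, 6.36 and 6.89 in overexpressing LNCaP cells against 10.31, 10.57 and 10.37 in controls (-3.52 ± 0.18, adjusted p = 8.48e-11), or 11.5-fold lower, and fell by 1.48 ± 0.18 on the log2 scale in 22Rv1 cells. C1orf116, also called SARG for its response to androgen, was at 6.73, 6.69 and 6.92 in overexpressing 22Rv1 cells against 9.33, 9.43 and 9.30 in controls (-2.57 ± 0.15, adjusted p = 9.03e-10), the smallest adjusted p of the set there. Its change in LNCaP cells was -2.16 ± 0.15, a difference between lines of 0.41 ± 0.22 that did not pass (adjusted p = 0.14). TPD52, a vesicle-traffic protein amplified in prostate cancer, changed by -1.50 ± 0.11 in LNCaP and -0.53 ± 0.11 in 22Rv1 cells. FAM174B, PPFIBP2 and MPHOSPH9 fell in LNCaP cells by 1.15, 1.0 and 0.85 on the log2 scale and were not called in 22Rv1 cells (-0.04, 0.19 and -0.40). HOMER2, a postsynaptic-type scaffold, was at 9.02, 9.02 and 8.62 in overexpressing 22Rv1 cells against 8.08, 7.56 and 8.17 in controls (0.95 ± 0.21, adjusted p = 0.000827). It was not called in LNCaP cells (-0.40 ± 0.21, adjusted p = 0.107). RAB3B, a secretory-vesicle GTPase, was not called in either line, at -0.04 ± 0.12 in LNCaP (adjusted p = 0.777) and 0.02 ± 0.12 in 22Rv1 cells (adjusted p = 0.878).

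**Figure D4:**
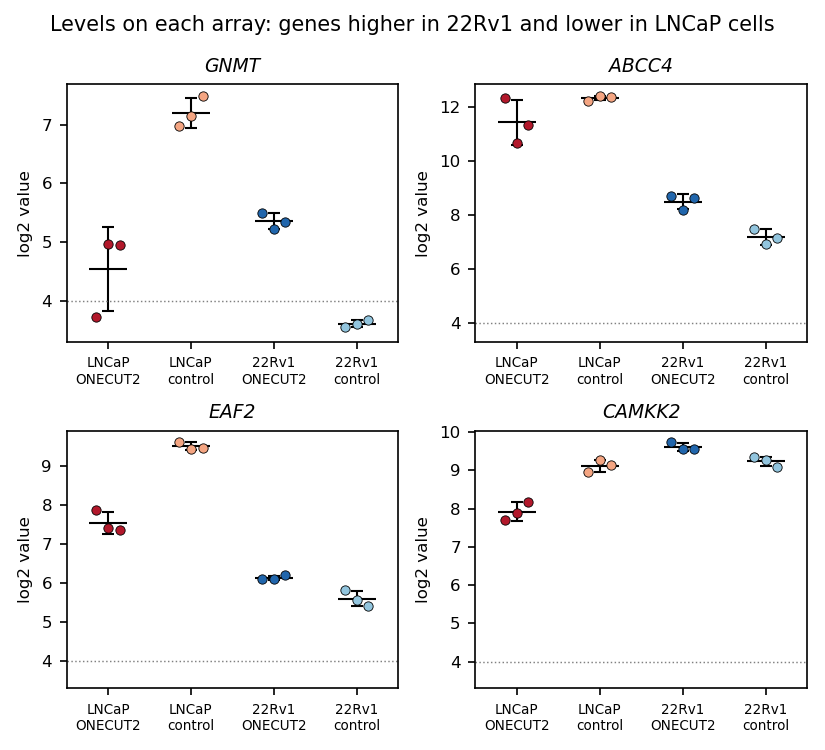
Log2 value on each array (points), with the group mean and SD over 3 arrays (bars), for GNMT, ABCC4, EAF2 and CAMKK2, the 4 genes called lower in LNCaP and higher in 22Rv1 cells with ONECUT2 overexpression; the dotted line is a log2 value of 4. The 22Rv1 overexpression points lie above their controls in all 4 panels, and in the ABCC4 panel 1 LNCaP overexpression array is level with the controls.

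The spread within the LNCaP overexpression group was larger than elsewhere: the median SD of the 32 genes was 0.40 there, against 0.12 in LNCaP controls, and 0.11 in 22Rv1 overexpression against 0.12 in 22Rv1 controls. The standard errors above pool the spread of all 6 groups, so they do not show the spread of the LNCaP overexpression arrays alone. With only LNCaP arrays fitted, 28 of the 30 genes kept their call and 2 kept direction only. Replicate 1 of LNCaP overexpression was the highest of its group's 3 arrays for 20 of the 32 genes. Its median difference from the control mean was -1.46, compared with -2.20 on replicate 2 and -2.06 on replicate 3. With replicate 2 alone kept, a setting chosen after seeing the data, 30 genes were lower and 0 higher in LNCaP cells. Markers of proliferation moved with overexpression in both lines. The log2 of the summed level of MKI67, TOP2A, CCNB1, CDK1 and BUB1 was 8.68 to 11.5 in overexpressing LNCaP cells against 14.3 in controls, and 11.8 to 12.1 in overexpressing 22Rv1 cells against 14.1 to 14.3 in controls. Of the stromal markers, COL1A1 rose in both lines, by 3.64 in LNCaP (adjusted p = 1.14e-08) and 2.12 in 22Rv1 cells (adjusted p = 6.39e-06), while COL1A2 and DCN were under 4 on all arrays of these groups. LUM, another stromal marker, was at least 3.14-fold lower in overexpressing 22Rv1 cells (adjusted p = 1.46e-10) and under 4 in both LNCaP groups, and ACTA2 was not called in LNCaP (-0.22, adjusted p = 0.358) or 22Rv1 cells (-0.12, adjusted p = 0.617). The neuroendocrine marker ENO2 was at least 23.9-fold higher in overexpressing LNCaP cells than in controls under 4, and rose by 1.66 in 22Rv1 cells. The other neuroendocrine marker tested was not called in LNCaP cells (0.43) and rose by 0.78 in 22Rv1 cells. SYP was under 4 on all arrays. The difference between the 3' and 5' control probe sets of ACTB, a sign of RNA integrity, was 8.06 ± 0.70 in overexpressing 22Rv1 cells against 4.11 ± 0.41 in controls (SD, n = 3, exact permutation p = 0.1, the smallest that 3 against 3 can give). In LNCaP cells it was 2.85 ± 0.56 with overexpression against 2.94 ± 0.25 in controls (SD, n = 3, exact permutation p = 0.8). The same difference for GAPDH was -0.43 ± 0.13 in overexpressing 22Rv1 cells against -0.70 ± 0.09 in controls (SD, n = 3, exact permutation p = 0.1), a gap of 0.26 beside 3.94 for ACTB, and in LNCaP cells it was -0.68 ± 0.07 in both groups (SD, n = 3, exact permutation p = 0.9). The part of these differences in the results was not tested.

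The test of the difference between lines set the LNCaP change against the 22Rv1 change gene by gene. It called 20 of the 32 genes lower, meaning a more negative change in LNCaP cells, and 1 higher, beside 26.6% of all genes called lower, 18.1% higher and 44.7% in either direction. The median difference was -1.12, against -0.10 over all genes tested, and without TRPM8 19 of 31 were lower. TMPRSS2 (-4.47 ± 0.23, adjusted p = 6.77e-10), GNMT (-4.41 ± 0.34, adjusted p = 6.54e-08) and HPGD (-3.04 ± 0.64, adjusted p = 0.00121) differed most, and TMPRSS2 and TRPM8 differed where 22Rv1 cells had no measurable signal to lose. With arrays under 4 set to 4 the differences were -4.76 for TMPRSS2, -3.93 for GNMT and -2.56 for HPGD. The HPGD difference was -3.10 on that scale without LNCaP overexpression replicate 1, and as fitted it was -2.36 without replicate 3, and 1 further HPGD probe set gave the opposite call, 1.04. MAF (-2.80 ± 0.41), EAF2 (-2.49 ± 0.21), ABCC4 (-2.20 ± 0.40) and NCAPD3 (-2.04 ± 0.26) followed. ZBTB10 was the single gene called with a more negative change in 22Rv1 cells (0.70 ± 0.25, adjusted p = 0.0348), and that call was lost without replicate 1 or 3 of either 22Rv1 group or LNCaP control replicate 2 or 3 (0.63 to 0.69, adjusted p 0.0597 to 0.0781). The ODC1 difference (-0.20 ± 0.07, adjusted p = 0.0298) was lost without 22Rv1 control replicate 1 or 3, 22Rv1 overexpression replicate 3 or LNCaP control replicate 2 or 3 (-0.16 to -0.20, adjusted p 0.0507 to 0.0853). For 8 of the 17 genes that fell in both lines the difference did not pass, among them STEAP1 (-0.18 ± 0.43), ELL2 (-0.10 ± 0.31), PLPP1 (0.10 ± 0.36), PMEPA1 (-0.07 ± 0.11) and AZGP1 (0.48 ± 0.48).

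Before any overexpression, LNCaP controls had more signal than 22Rv1 controls for most of the set. Of the 32 genes 22 were higher and 3 lower, beside 30.2% of all genes called higher, 33.5% lower and 63.6% in either direction, with a median of 1.08 against -0.04 over all genes. Without TRPM8 21 of 31 were higher. MAF was 46.5-fold higher in LNCaP controls (5.54 ± 0.29), ABCC4 35.4-fold (5.14 ± 0.29), EAF2 14.9-fold (3.90 ± 0.15) and PPFIBP2 12.8-fold (3.68 ± 0.17), while TMPRSS2 was at least 36.4-fold and GNMT at least 9.24-fold higher. These 4 measured genes and the 2 bounds had no overlap between lines. TMPRSS2 passed the filter only through LNCaP arrays, so a higher level there is favoured by the filter itself. ZBTB10 (-2.30 ± 0.18), HPGD (-1.73 ± 0.45) and PMEPA1 (-0.93 ± 0.08) were lower in LNCaP controls. The ZBTB16 call (0.56, adjusted p = 0.0454) was lost with any of 5 arrays left out, all but 22Rv1 control replicate 2 (0.32 to 0.63, adjusted p 0.0544 to 0.252). The HOMER2 call (0.65, adjusted p = 0.0112) was lost without 22Rv1 control replicate 2 (0.46, adjusted p = 0.0745) or LNCaP control replicate 1 (0.56, adjusted p = 0.051). A TPD52 probe set other than its brightest gave the opposite call (-1.12 against 0.86). The LNCaP control arrays also enter the LNCaP overexpression comparison. Of the 30 genes that fell there, 20 were higher in LNCaP than in 22Rv1 controls, a share close to the 22 of 32 for the whole set.

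In 22Rv1 cells with the short hairpin labelled against ONECUT2, compared with scramble, 5 of the 32 genes fell and 6 rose, beside 16.1% of all genes called lower, 13.4% higher and 29.5% in either direction. The median change was -0.03, the same as over all genes. PTGER4 was at 7.95, 7.98 and 7.98 on the arrays labelled shRNA against 9.85, 9.75 and 10.06 on scramble arrays (-1.92 ± 0.19, adjusted p = 1.55e-06), or 3.77-fold lower. LIFR was at 4.94, 5.28 and 5.28 against 7.14, 6.85 and 7.22 on scramble arrays (-1.90 ± 0.31, adjusted p = 0.000217). Both receptors thus stood well apart, and AZGP1 did too, at 9.52, 9.37 and 9.42 on shRNA arrays against 10.69, 10.71 and 11.06 on scramble arrays (-1.38 ± 0.34, adjusted p = 0.00532). EAF2 was at 5.39, 5.61 and 5.81 on shRNA arrays against 6.39, 6.18 and 6.26 on scramble arrays (-0.67 ± 0.15, adjusted p = 0.00286). STEAP4 was at 4.06, 3.47 and 3.86 on shRNA arrays against 4.40, 4.31 and 4.55 on scramble arrays (-0.62 ± 0.22, adjusted p = 0.0423), close to background. The STEAP4 call was lost with any of 5 arrays left out (-0.46 to -0.68, adjusted p 0.0641 to 0.190), all but shRNA replicate 1.

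Of the genes that rose, HPGD was at 10.87, 10.86 and 10.91 on shRNA arrays against 9.56, 9.40 and 9.94 on scramble arrays (1.25 ± 0.45, adjusted p = 0.0484). Its groups did not overlap, but the call was lost with any 1 of the 6 arrays left out (1.13 to 1.40, adjusted p 0.0609 to 0.132). Its standard error is pooled over all 6 groups. The HPGD SD was 1.46 in overexpressing LNCaP cells, against 0.03 on shRNA and 0.28 on scramble arrays. With only shRNA and scramble arrays fitted, all 11 calls of this comparison held. NDRG1 was at 8.04, 8.04 and 7.99 on shRNA arrays against 7.08, 7.08 and 6.79 on scramble arrays (1.04 ± 0.15, adjusted p = 6.02e-05). C1orf116 was at 9.31, 9.30 and 9.28 on shRNA arrays against 8.38, 8.44 and 8.44 on scramble arrays (0.88 ± 0.15, adjusted p = 0.000458). FKBP5 was at 12.15, 12.10 and 12.20 on shRNA arrays against 11.68, 11.83 and 11.69 on scramble arrays (0.42 ± 0.10, adjusted p = 0.0063), a small but separate difference. ODC1 rose by 0.17 (adjusted p = 0.0136) and ZBTB10 by 0.49 (adjusted p = 0.0491). The ZBTB10 call was lost with any of 5 arrays left out (0.40 to 0.57, adjusted p 0.052 to 0.170), all but scramble replicate 3. TMPRSS2, TRPM8 and GNMT were under 4 in both groups.

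**Figure D5:**
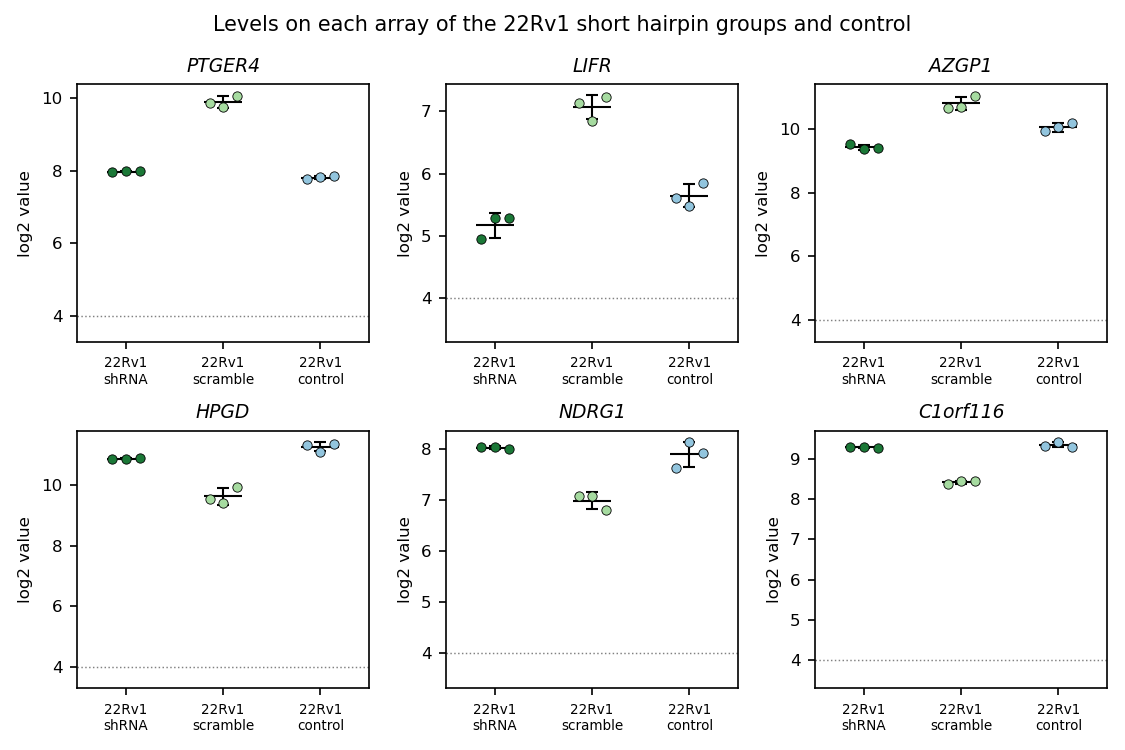
Log2 value on each array (points), with the group mean and SD over 3 arrays (bars), for 6 genes in 22Rv1 cells labelled ONECUT2 shRNA, scramble shRNA and control; the dotted line is a log2 value of 4. PTGER4 and LIFR are higher on scramble arrays than on both other groups, and HPGD, NDRG1 and C1orf116 are lower on scramble arrays than on both.

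The scramble arrays themselves differed from the 22Rv1 controls labelled vehicle, and the comparisons among these 3 groups share arrays, so the values are given side by side. Against control, 5 of the 32 genes were higher and 6 lower on scramble arrays, beside 12.5% of all genes called higher, 9.4% lower and 21.9% in either direction. PTGER4, with the scramble values above, was 2.08 ± 0.19 higher than the controls at 7.77, 7.82 and 7.84 (adjusted p = 9.82e-07), and LIFR was 1.42 ± 0.31 higher (adjusted p = 0.00343) than controls at 5.61, 5.48 and 5.85. EAF2 (0.68), CAMKK2 (0.40) and RAB3B (0.40) were higher as well. HPGD (-1.64 ± 0.45, adjusted p = 0.0158), SLC45A3 (-1.0 ± 0.21, adjusted p = 0.00234), C1orf116 (-0.93 ± 0.15), NDRG1 (-0.91 ± 0.15), MAF (-0.88 ± 0.29, adjusted p = 0.0371) and FKBP5 (-0.53 ± 0.10) were lower. The MAF groups overlapped. Several of these calls, made with standard errors pooled over all 6 groups, were lost with 1 array left out. With only scramble and control arrays fitted, all 11 held. CAMKK2 lost its call without control replicate 2 or 3 or scramble replicate 1 or 2 (0.33 to 0.42, adjusted p 0.0537 to 0.118), and RAB3B without control replicate 1 or 2 or scramble replicate 1 or 2 (0.35 to 0.39, adjusted p 0.0585 to 0.0866). HPGD lost it without control replicate 3 or scramble replicate 1 or 2 (-1.53 to -1.60, adjusted p 0.0507 to 0.0588), and MAF without control replicate 1 or 3 or scramble replicate 2 or 3 (-0.72 to -0.83, adjusted p 0.0964 to 0.152). Against the same controls the arrays labelled shRNA had 2 genes lower and 0 higher, beside 2.11% of all genes called lower, 2.35% higher and 4.46% in either direction. These were MAF, at least 2.02-fold lower, and SLC45A3 (-0.95), whose call was lost without control replicate 2 (-0.79, adjusted p = 0.0746), shRNA replicate 2 (-0.95, adjusted p = 0.0574) or shRNA replicate 3 (-0.89, adjusted p = 0.0619).

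Other genes of the pathway were taken from lists of cofactors and targets of androgen signalling. All 3 kallikreins fell in both lines, beside 28% of all genes called lower in LNCaP and 24.3% in 22Rv1 cells. KLK3, which encodes prostate-specific antigen, was at 9.13, 5.08 and 5.51 in overexpressing LNCaP cells against 13.26, 13.25 and 13.25 in controls (-6.68, adjusted p = 4.94e-07). It was at 4.17, 4.25 and 4.45 in overexpressing 22Rv1 cells against 7.59, 7.19 and 7.17 in controls (-3.02, adjusted p = 0.00116). Replicate 1 was the highest of the LNCaP overexpression arrays, and without it the KLK3 change was -7.96, or -5.93 without replicate 2. KLK2 was at 6.30, 3.18 and 3.41 in overexpressing LNCaP cells against 11.39, 11.24 and 11.08 in controls, a change of -6.47 with arrays under 4 set to 4. Without replicate 1 both remaining arrays were at background, and the KLK2 fall was at least 7.24 on the log2 scale. In 22Rv1 cells KLK2 changed by -3.53, and KLK4 changed by -2.26 in LNCaP and -2.64 in 22Rv1 cells. Of 7 cofactors of androgen signalling tested, 5 (71.4%) fell and 0 rose in LNCaP cells, beside 28% and 34.1% of all genes. In 22Rv1 cells 3 (42.9%) fell and 0 rose, beside 24.3% and 36.5% of all genes. FOXA1 changed by -3.02 (adjusted p = 8.46e-05) in LNCaP and -1.87 in 22Rv1 cells (adjusted p = 0.00431), SPDEF by -4.69 and -2.40, and GATA2 by -0.56 and -1.0. The FOXA1 change in LNCaP cells was -3.95 without overexpression replicate 1 and -2.44 without replicate 2.

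Of a further list of 31 tested androgen-induced genes, 20 (64.5%) were lower and 6 (19.4%) higher in LNCaP cells, beside 28% and 34.1% of all genes. In 22Rv1 cells 13 (41.9%) were lower, beside 24.3% of all genes, and 11 (35.5%) were higher, which is near the 36.5% of all genes. INPP4B, a lipid phosphatase that limits AKT signalling, fell in both lines, at least 19.9-fold in LNCaP cells and with a change of -3.58 in 22Rv1 cells. There 2 overexpressing arrays were under 4, and with these set to 4 the change was -3.37. By contrast SAT1, which catabolises polyamines, rose in 22Rv1 cells (3.61). Of 6 androgen-repressed genes, 4 fell in LNCaP cells, among them ACKR3, a chemokine scavenger (-6.04, or -6.70 without overexpression replicate 1), and 1 rose, a call that was lost when each array was centred on its median. The 4 lower are 66.7% of the list beside 28% of all genes, and the 1 higher is 16.7% beside 34.1%. In 22Rv1 cells 1 of the 6 fell and 1 rose (16.7% each), beside 24.3% and 36.5% of all genes. A list of 6 tested glucocorticoid-related genes held NR3C1, the glucocorticoid receptor, and genes that glucocorticoids induce, several of which androgens can also induce. Of the 6, 5 (83.3%), NR3C1 among them, rose and 0 fell in 22Rv1 cells, beside 36.5% and 24.3% of all genes. In LNCaP cells 2 rose and 2 fell (33.3% each), near the 34.1% and 28% of all genes. NR3C1, the glucocorticoid receptor, was at 7.40, 6.97 and 6.83 in overexpressing 22Rv1 cells against 4.01, 4.20 and 4.09 in controls (2.97, adjusted p = 2.25e-10), and under 4 on all LNCaP arrays of both groups. FKBP5, which androgens and glucocorticoids both induce, fell in 22Rv1 cells, where the phosphatase gene DUSP1, on the glucocorticoid-related list, rose (2.74). On the arrays labelled shRNA all 6 genes of this list, NR3C1 included, were called lower than on scramble arrays, beside 16.1% of all genes. Against 22Rv1 control, 2 (33.3%) were higher and 0 lower on scramble arrays, beside 12.5% and 9.4% of all genes. On shRNA arrays 2 (33.3%) were lower and 0 higher than control, beside 2.11% and 2.35% of all genes.

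The calls were also read from dimmer probe sets of the same genes. For 17 of the 32 genes, 39 other probe sets that also map to that gene alone could be fitted. Counting those of genes that were called, in LNCaP cells 34 gave the same call as the probe set used, 1 gave no call and 0 the opposite call. In 22Rv1 cells 18 gave the same call, 6 none and 0 the opposite.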

How the data were processed

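Total RNA of 18 samples was hybridised to Affymetrix U133 Plus 2.0 arrays. Per the submitters' processing notes the authors made the deposited log2 values with GCRMA. The version used, and whether 1 run covered all arrays, are details not given in the sources used here. Of 54675 probe sets, 41097 mapped to 1 gene symbol, 1801 to several and 11715 to none, and each gene was read from the probe set with the highest mean. A gene entered the test with a value over 4 on at least 3 arrays (12159 genes), which was taken as above background.

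The 6 group means were fitted in 1 limma model (limma 3.58.1, R 4.3.3; 12 residual degrees of freedom; eBayes with trend and robust settings), and p-values were Benjamini-Hochberg adjusted over all genes of each of 7 comparisons. Each gene has 1 spread pooled over the 6 groups, so its standard error is the same in both overexpression comparisons. A gene is called at an adjusted p under 0.05. The fit was also run on simulated data drawn with 1 spread a gene for all 6 groups. Such data leave out the larger spread of the LNCaP overexpression arrays, so they do not show how the fit handles it. Alternatives were centring, repeated quantile normalization, other filters, averaged probe sets, plain eBayes, separate fits, array weights, a replicate block and single arrays left out. Arrays give no counts, so their number limits precision.

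The genes and lists were chosen with earlier results of these data known. Values on every array are given for up to 8 called genes of largest change in each direction, and further lists and markers by counts and up to 3 genes of smallest p. Promoters were read from RefSeq (GRCh38.p14) from 250 bases before to 50 after the start.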

Additional observations from a re-analysis of the deposited data

Results flagged for a closer look

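For 21 genes the effect of ONECUT2 overexpression differed between the cell lines by the interaction test of the limma fit. Each value is the log2 change in LNCaP cells minus that in 22Rv1 cells. In 20 genes the change was more negative in LNCaP cells: TMPRSS2 by -4.47, GNMT by -4.41, HPGD by -3.04, MAF by -2.80, TRPM8 by -2.73, EAF2 by -2.49, ABCC4 by -2.20, NCAPD3 by -2.04, NDRG1 by -1.89 and UAP1 by -1.72. STEAP4 differed by -1.70, CAMKK2 by -1.58, LIFR by -1.50, HOMER2 by -1.35, PPFIBP2 by -1.19, SLC45A3 by -1.13, FAM174B by -1.11, TPD52 by -0.97, FKBP5 by -0.77 and ODC1 by -0.20. ZBTB10 differed by 0.70, with the more negative change in 22Rv1 cells.

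GNMT, ABCC4, EAF2 and CAMKK2 were called in opposite directions in the 2 lines. The values above are as fitted, and background limits 5 of them. TMPRSS2 and TRPM8 were at background in both 22Rv1 groups, GNMT in 22Rv1 controls, STEAP4 in overexpressing cells of both lines and TRPM8 also in overexpressing LNCaP cells, where HPGD was under 4 on 2 of 3 arrays. With arrays under 4 set to 4 the differences were -4.76 for TMPRSS2, -3.93 for GNMT, -2.56 for HPGD, -2.02 for TRPM8 and -1.46 for STEAP4. TRPM8 passed the filter only through LNCaP controls, so its difference is no test. For HPGD, 1 further probe set gave the opposite call. No explanation was tested.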

How the results depend on the processing

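In overexpression the calls held under most settings. Over the 7 comparisons and all settings except leaving out 1 array, 1104 values for called genes kept direction and call. Another 31 kept direction only. The 1 that turned was RAB3B on scramble arrays against control (-0.025, adjusted p = 0.862, with probe sets averaged). With 1 array left out, again over the 7 comparisons, 798 kept both and 60 direction only. The causes were not tested.

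Genes of the set called lower in LNCaP overexpression numbered 28 to 31 under every setting, and 16 to 21 in 22Rv1. Higher in 22Rv1 fell to 2 of 5 with probe sets averaged. Higher in the line difference was 1, and 0 with centring or separate fits, 2 with quantile normalization or array weights, and 0 to 2 with 1 array left out. With array weights 3447 of all genes were higher there. For shRNA against scramble, 3 were higher with plain eBayes, 9 lower with separate fits and 9 with array weights (over all genes, 2787 higher and 3408 lower with weights). For scramble against control, 2 were higher with probe sets averaged and 3 to 5 with 1 array left out. In the same comparison 11 were lower with separate fits and 15 with weights. All genes gave 2771 higher and 1859 lower with separate fits, 3520 and 2284 with weights, and 1000 to 1308 higher with 1 array left out. For shRNA against control, the set had 1 higher with weights, and lower 1 with probe sets averaged, 10 with separate fits, 10 with weights and 1 to 2 with 1 array left out. All genes gave 1063 higher and 915 lower with separate fits, 1607 and 1294 with weights, and 114 to 230 higher and 96 to 273 lower with 1 array left out. In LNCaP against 22Rv1 control 5 were lower with separate fits and 5 with weights.

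Same-numbered arrays were not treated as pairs, since no comparison had every correlation of their deviations from group means over 0.1. The correlations were 0.425 and 0.337 for replicates 2 and 3 of scramble against control, and 0.321 for replicate 3 of shRNA against scramble. The rest lay between -0.217 and 0.137. Whether same-numbered arrays were handled together was not tested. With the replicate block 30 genes were lower in LNCaP, 17 lower and 5 higher in 22Rv1 overexpression, and 4 lower and 5 higher for shRNA against scramble. Values near background limit TMPRSS2, TRPM8, STEAP4, GNMT and HPGD. Setting arrays under 4 to 4 and counting without TRPM8 were chosen after seeing the data, and turned no direction in the genes where they were applied.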
